A study of Mus musculus with 72 samples.

Results

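The genome flanks of the 2 deleted Hmgn genes were followed through every deposited peak list of chromatin immunoprecipitation sequencing (ChIP-seq). The flanks were defined by position alone, as mm9 chromosome 4 from 123500000 to 143500000 around Hmgn2 and chromosome 16 from 86300000 to its end at 98319150 around Hmgn1. They held 25747 of the 1156918 peaks of 64 libraries, 19066 in the Hmgn2 flank and 6681 in the Hmgn1 flank. Hmgn2 (ENSMUSG00000003038.9, chr4:133520653-133524565, minus strand) lay 10.02 Mb from the lower and 9.98 Mb from the upper limit, and Hmgn1 (ENSMUSG00000040681.8, chr16:96342225-96349336, minus strand) lay 10.04 Mb from the lower limit and 1.97 Mb from the chromosome end. The question was whether sites called in 1 genotype only were more frequent there than in the rest of the same chromosomes, as would be looked for if DNA of another origin had been carried along with the targeted genes.

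The study compared Hmgn1+/+n2+/+ (WT) cells with Hmgn1-/- n2-/- (DKO) cells that lack both HMGN1 and HMGN2, in mouse embryonic fibroblasts (MEFs), embryonic stem cells (ESCs) and resting B cells from spleen (rBs). Antibodies to 16 proteins or histone marks were used, 6 in MEFs (CEBPB, Brd3, p300, H3K27ac, H3K27me3 and histone H1), 5 in ESCs (Klf4, CTCF, NANOG, SOX2 and OCT4) and 5 in rBs (IKAROS, ETS1, IRF8, PAX5 and OCT2), each with 2 WT and 2 DKO libraries from biological replicates. The labels give C57BL/6 as the strain of every sample. The strain of the cells in which the genes were targeted, the extent of each deletion, the number of ESC lines, and the age and number of animals are not given in the sources used here. Of 5 marker genes for each cell type, all 5 had a site in both WT libraries of some antibody in their own cell type. MEF libraries also had one at 1 ESC gene (Esrrb) and 1 B cell gene (Cd79a), ESC libraries at 3 MEF genes (Col1a1, Col1a2 and Prrx1) and 1 B cell gene (Pax5), and rB libraries at none of the other markers. The lists held from 10 to 84850 peaks and give no read counts, so the sequencing depth is unknown.

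HMGN1 and HMGN2 are small proteins that bind nucleosomes without a preferred DNA sequence and are found in many cell types. H3K27ac and p300 mark active enhancers and promoters, and Brd3 reads acetylated histones. CTCF binds a long DNA motif and anchors chromatin loops, whereas OCT4, SOX2, NANOG and Klf4 maintain the pluripotent state and IKAROS, ETS1, IRF8, PAX5 and OCT2 act in lymphocytes. A knockout made by gene targeting and then bred to another strain keeps the DNA of the targeted cells closest to the deleted gene, and sequence differences there can create or remove binding sites. Peaks from bulk chromatin cannot tell fewer bound cells from weaker binding per cell.

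Sequences of 101 bases centred on the peak summit are shown for sites of the flanks called in both libraries of 1 genotype and in neither of the other, because these are the sites at which a sequence difference would be looked for. They were chosen after values were seen, from the 3 strongest sites of a factor. The strongest WT-only CTCF, the strongest DKO-only SOX2 and the second DKO-only CTCF site held no match to the letters searched, and weaker sites with a match are shown instead. The Brd3 site, stronger than 5.48% of shared Brd3 sites, is shown because it lies at the Hmgn2 promoter. They are the mm9 reference, plus strand, 5′ to 3′, and not the sequence of either genotype's cells. Capitals mark a match on either strand to a short core motif of the factor (AGGNGGC for CTCF, TTGCNNAA for CEBPB, ATGCNAAT for OCT4 and for NANOG, ACAANG for SOX2, GGGNGTGG for Klf4), or each CG in the site at the Hmgn2 promoter.
CTCF DKO-only, strongest, chr16:89188967-89189067: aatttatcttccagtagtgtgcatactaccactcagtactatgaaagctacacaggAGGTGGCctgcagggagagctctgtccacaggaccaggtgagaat
CTCF DKO-only, near Morc3, chr16:93825886-93825986: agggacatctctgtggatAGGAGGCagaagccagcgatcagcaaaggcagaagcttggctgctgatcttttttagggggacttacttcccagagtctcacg
CTCF WT-only, near Rab42-ps, chr4:131854959-131855059: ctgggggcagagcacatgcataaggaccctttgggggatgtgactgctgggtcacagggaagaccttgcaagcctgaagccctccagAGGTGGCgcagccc
CEBPB WT-only, Runx1 intron, chr16:92715828-92715928: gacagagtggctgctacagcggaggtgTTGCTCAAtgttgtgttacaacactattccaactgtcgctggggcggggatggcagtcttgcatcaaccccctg
SOX2 DKO-only, Aldh4a1 intron, chr4:139183364-139183464: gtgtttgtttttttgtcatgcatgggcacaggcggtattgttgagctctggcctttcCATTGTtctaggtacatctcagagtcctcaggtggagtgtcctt
Klf4 DKO-only, near Cbr3, chr16:93676874-93676974: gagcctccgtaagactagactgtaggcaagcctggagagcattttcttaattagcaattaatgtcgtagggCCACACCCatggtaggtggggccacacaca
NANOG DKO-only, strongest, chr16:95395428-95395528: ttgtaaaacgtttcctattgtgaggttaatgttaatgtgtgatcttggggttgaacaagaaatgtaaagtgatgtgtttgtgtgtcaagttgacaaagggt
OCT4 DKO-only, strongest, chr16:90658487-90658587: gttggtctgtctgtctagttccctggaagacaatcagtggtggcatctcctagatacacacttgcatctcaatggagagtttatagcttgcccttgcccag
Brd3 WT-only, Hmgn2 promoter, chr4:133524126-133524226: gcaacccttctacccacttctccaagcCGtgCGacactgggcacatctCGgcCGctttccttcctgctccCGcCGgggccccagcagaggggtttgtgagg

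None of these windows touched an annotated exon. The NANOG and OCT4 windows held no match to the letters searched, and the Hmgn2 promoter window held 6 CG, against a median of 2 over all Brd3 sites of chromosomes 1 to 19. Across the genome, the CTCF letters were found in 28.2% of CTCF windows and in 5.25% of windows 5000 bp away, and the CEBPB letters in 45.3% and 4.30%. In the flanks, 18.5% of 54 DKO-only CTCF sites (95% Clopper-Pearson interval 9.25% to 31.4%) and 13.8% of 29 WT-only sites (3.89% to 31.7%) held the CTCF letters, against 32.7% of 1554 sites called in both genotypes (30.4% to 35.1%). Both intervals left out the shared value of 32.7%, and both overlapped the interval of the shared sites. CEBPB letters were in 40.2% of 102 WT-only and 52.5% of 59 shared flank sites, OCT4 letters in 20.2% of 247 DKO-only and 20.5% of 219 shared sites, and SOX2 letters in 38.8% of 98 DKO-only and 46.0% of 176 shared sites. In windows 5000 bp from the flank sites, CTCF letters were in 11.1% (DKO-only), 10.3% (WT-only) and 6.50% (shared). SOX2 letters were there in 26.5% (DKO-only) and 18.2% (shared), OCT4 letters in 0% and 0.913%, and CEBPB letters in 3.92% (WT-only) and 0% (shared). The ACAANG, ATGCNAAT and GGGNGTGG letters were in 49.4%, 16.2% and 27.1% of all SOX2, OCT4 and Klf4 windows, and in 19.8%, 1.27% and 3.38% of the windows 5000 bp away. ATGCNAAT, searched in NANOG windows as a partner motif, was in 5.401% of all of them.

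At Hmgn2 itself, peaks were called in WT libraries alone. In the following, the strength of a peak is its deposited −log10 q at the summit. The H3K27ac site chr4:133523515-133523917 at the promoter had 37.6 and 33.0 in the 2 WT libraries, and 2 further H3K27ac sites had 15.3 and 12.1 and 7.60 and 4.30. A Brd3 site had 4.05 and 8.35. IKAROS had 62.8 and 94.8 at chr4:133523475-133523915, the strongest WT-only IKAROS site of both flanks. CEBPB (11.7), NANOG (4.96) and a second Brd3 site (6.01) were called in 1 WT library each. No DKO library of any antibody had a peak within 1000 bp of the gene. Between 1 and 20 kb from Hmgn2, sites were called in ESCs alone, 2 for CTCF (1 of them shared), 1 shared site each for NANOG and SOX2, and 2 DKO-only sites for OCT4.

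At Hmgn1, by contrast, promoter peaks of H3K27ac, Brd3 and IKAROS were called in DKO libraries too. The broad H3K27ac site chr16:96347693-96349383 over the start of the gene had 59.6 and 62.7 in WT and 112.6 and 112.4 in DKO MEFs, and the site upstream of it had 29.6 and 38.8 against 53.3 and 55.2. The groups did not overlap at either site, and the share of all H3K27ac sites without overlap was not counted. The ratio of the DKO to the WT mean was 1.84 and 1.59, exceeded by 3379 and 5928 of the 42234 H3K27ac sites called in all 4 libraries, whose median ratio was 1.05. The stronger of 2 Brd3 sites, chr16:96348722-96349342 over the start of the gene, had 36.1 and 25.2 in WT, 17.9 in DKO replicate 1 and no peak in DKO replicate 2. The upstream Brd3 site chr16:96349675-96350124 had 14.2 and 14.0 in WT and 4.17 and 8.45 in DKO, a ratio of 0.448 beside a median of 0.471. IKAROS at chr16:96349102-96349345 went the other way from the rest of its list, with 19.03 and 24.6 in WT and 101.6 and 80.0 in DKO rBs. Its ratio of 4.16 was the highest of 3549 IKAROS sites called in all 4 libraries; the next was 2.65, the median was 0.463, and 60 sites (1.69%) had a ratio above 1. These ratios have no test. Between 1 and 20 kb from Hmgn1, all 4 CTCF sites and the 1 NANOG site were shared. Of 3 H3K27ac sites there 1 was shared and 1 DKO-only, of 2 IKAROS sites 1 was shared and 1 WT-only, and the 1 ETS1 site was WT-only.

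**Figure D1:**
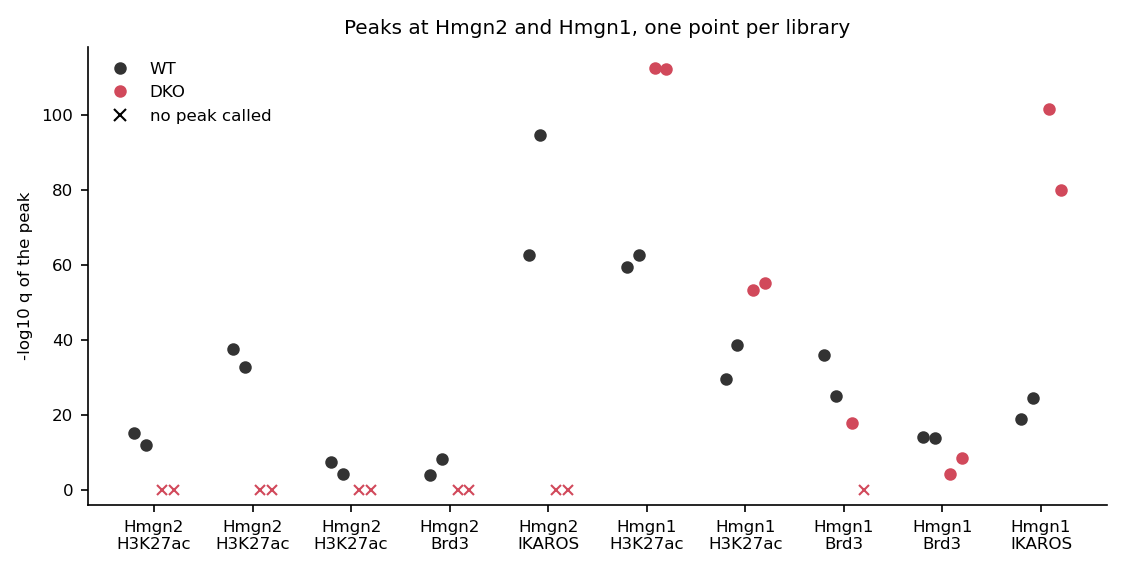
Peak strength (−log10 q at the summit, as deposited) of each site at Hmgn2 and Hmgn1, with 1 point per library (WT and DKO, 2 of each) and a cross where a library has no peak. Sites at Hmgn2 have WT points alone, while the IKAROS site at Hmgn1 has 19.03 and 24.6 in WT and 101.6 and 80.0 in DKO.

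The flanks were rich in genes and in most kinds of site. The Hmgn2 flank covers 12.9% of chromosome 4 and held 26.7% of its peaks, with 17.2 coding genes per Mb against 7.45 in the rest, and the Hmgn1 flank covers 12.2% of chromosome 16 and held 16.3% of its peaks, with 10.2 genes per Mb against 6.40. Klf4 sites stood at 12.8 per Mb in the Hmgn2 flank and 2.82 in the rest of chromosome 4, and CTCF sites at 69.0 and 23.4 per Mb, whereas CEBPB sites stood at 5.2 and 6.24 per Mb. Sites were therefore compared as shares. Peaks of the 4 libraries of an antibody were joined into sites where they overlapped, and a site was WT-only if both WT libraries and no DKO library had a peak there, DKO-only in the reverse case, and shared if both libraries of one genotype and at least 1 of the other had one. The 9039 flank sites held 730 WT-only and 724 DKO-only sites. For the 11 antibodies with at least 30 sites in each flank, the flank's share is given with its exact 95% Clopper-Pearson interval, which covers counting error alone, and beside the share over all chromosomes. For a share of 0 the limit given is that of 3 counts in the total, which lies below the upper end of the exact interval. Of the 44 shares, the interval left out the value of the rest of the chromosome in 9. How often this happens for other regions of the genome was not counted, so no excess is read from this number.

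In MEFs, where several marks had fewer peaks in DKO cells, the WT-only intervals of H3K27ac, p300 and Brd3 held the value of the rest of the chromosome in both flanks. H3K27ac had 90 WT-only sites of 1525 in the Hmgn2 flank (5.90%, interval 4.77% to 7.20%) against 6.00% in the rest of chromosome 4 and 5.83% over all chromosomes, and 51 of 704 in the Hmgn1 flank (7.24%) against 6.10%. H3K27ac DKO-only sites were fewer in the Hmgn2 flank, with 46 of 1525 (3.02%, 2.217% to 4.003%) against 4.45% and 4.4% over all chromosomes, and made up 4.55% against 3.98% in the Hmgn1 flank. For p300, the acetyltransferase that writes H3K27ac, WT-only sites were 14 of 77 (18.2%) against 17.97% and 9 of 60 (15%) against 15.2%, with 15.2% over all chromosomes. No p300 site was DKO-only, which allows shares of up to 3.90% and 5% (4.68% and 5.96% by the exact interval), beside 0.632% over all chromosomes.

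Brd3 WT-only sites numbered 159 of 590 (26.9%) in the Hmgn2 flank against 28.1% and 69 of 228 (30.3%) in the Hmgn1 flank against 27.04%, where all chromosomes gave 27%. Each flank had 1 Brd3 DKO-only site beside 0.0428% over all chromosomes, and since the rest of chromosome 16 had none, the Hmgn1 flank's 0.439% (0.0111% to 2.42%) counts among the 9 on 1 site alone, with the share over all chromosomes inside its interval. CEBPB, a leucine zipper factor of fibroblasts and myeloid cells, was the MEF antibody with the widest gap. Its WT-only sites made up 57 of 108 in the Hmgn1 flank (52.8%, 42.9% to 62.5%) against 39.9% in the rest of chromosome 16, and 45 of 104 (43.3%) against 40.3% in the Hmgn2 flank, with 39.3% over all chromosomes. Among 124 regions of about 20 Mb the Hmgn1 flank ranked 2nd for this share and the Hmgn2 flank 34th, around a median of 40%. No CEBPB site of the flanks was DKO-only, which allows up to 2.88% and 2.78%, with 0.482% over all chromosomes. The CEBPB lists held 14197 and 14692 peaks in WT and 4886 and 5328 in DKO MEFs, and the part of that difference in the flank shares was not tested.

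In ESCs the gap lay on the DKO side for 3 pluripotency factors. NANOG had 179 DKO-only sites of 1413 in the Hmgn2 flank (12.7%, 10.98% to 14.5%) against 9.58% in the rest of chromosome 4, and 53 of 448 in the Hmgn1 flank (11.8%, 8.99% to 15.2%) against 8.71%, with 9.44% over all chromosomes. SOX2 had 73 of 306 (23.9%, 19.2% to 29.0%) against 16.7% and 25 of 103 (24.3%, 16.4% to 33.7%) against 19.04%, with 16.6% over all chromosomes. OCT4 had 200 of 552 (36.2%, 32.2% to 40.4%) against 27.02% in the Hmgn2 flank and 47 of 160 (29.4%) against 28.4% in the Hmgn1 flank, with 28.8% over all chromosomes. Among the 124 regions the Hmgn2 flank had the highest OCT4 share and the Hmgn1 flank the 52nd, in a range of 15.8% to 36.2%. For SOX2 the Hmgn1 flank came first and the Hmgn2 flank 2nd, and for NANOG they were 13th and 6th. The OCT4 lists held 11140 and 12627 peaks in WT and 26742 and 30864 in DKO ESCs.

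WT-only sites of the same factors were fewer than DKO-only ones. NANOG had 20 (1.42%) and 12 (2.68%) in the Hmgn2 and Hmgn1 flanks against 1.81% and 2.85% in the rest, beside 2.19% over all chromosomes. SOX2 had 4 (1.31%) and 1 (0.971%) against 0.922% and 0.960% in the rest, beside 0.588%, and OCT4 had none, which allows up to 0.543% and 1.88%, beside 0.188%. Klf4 had 4 of 255 (1.57%) and 1 of 54 (1.85%) WT-only sites against 3.39% and 2.82% in the rest, beside 3.18% over all chromosomes, and 9 (3.53%) and 4 (7.41%) DKO-only sites against 6.27% and 7.51% in the rest and 6.1% over all chromosomes. CTCF lists were close in size between genotypes, with 62069 and 62772 peaks in WT and 64629 and 64634 in DKO ESCs. They had 18 WT-only sites of 1381 in the Hmgn2 flank (1.30%) against 1.196% and 38 DKO-only sites (2.75%) against 2.74%. In the Hmgn1 flank they had 11 WT-only sites of 452 (2.43%, 1.22% to 4.31%) against 1.02% and 16 DKO-only sites (3.54%) against 2.68%. All chromosomes gave 1.31% and 2.89%, and the Hmgn1 flank ranked 11th of 124 for WT-only and 30th for DKO-only CTCF sites, the Hmgn2 flank 65th and 71st.

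In rBs, IKAROS WT-only sites made up 72 of 238 in the Hmgn2 flank (30.3%) against 31.0% in the rest and 30 of 73 in the Hmgn1 flank (41.1%, 29.7% to 53.2%) against 29.1%, with 28.2% over all chromosomes. For this share the Hmgn1 flank ranked 3rd and the Hmgn2 flank 35th of 113 regions. ETS1 had 41 of 112 (36.6%) against 31.9% and 11 of 38 (28.9%) against 34.1%, with 33.9% over all chromosomes. Neither had a DKO-only site in the flanks, which allows up to 1.26% and 4.11% for IKAROS and 2.68% and 7.89% for ETS1, beside 0.14% and 0.103% over all chromosomes. The 5 antibodies with short lists (H3K27me3, H1, IRF8, PAX5 and OCT2) together had 9 WT-only sites of 42 in the Hmgn2 flank (21.4%) against 15.6% and 2 of 16 in the Hmgn1 flank (12.5%) against 22.5%, beside 18.1% over all chromosomes. They had no DKO-only site there, which allows up to 7.14% and 18.8%, beside 0.799%.

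**Figure D2:**
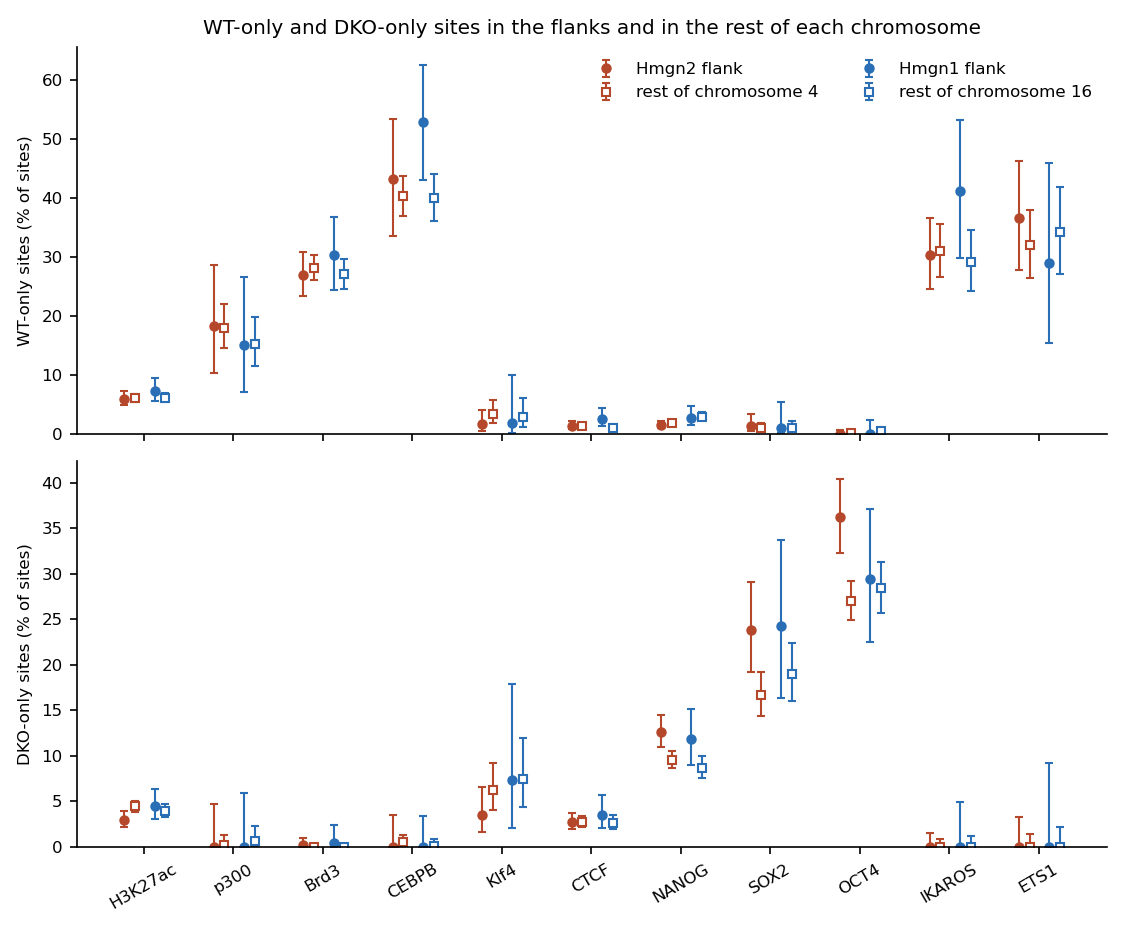
Share of sites that were WT-only or DKO-only (%) in each flank (point, with the exact 95% Clopper-Pearson interval) and in the rest of the same chromosome (open square, same interval), for the 11 antibodies with at least 30 sites in each flank. NANOG DKO-only sites stand at 12.7% and 11.8% in the flanks against 9.58% and 8.71%, and CTCF DKO-only sites in the Hmgn2 flank at 2.75% against 2.74%.

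In the Hmgn2 flank the WT-only share was above the rest for 5 of 11 antibodies and below it for 6, and the DKO-only share was above for 5. In the Hmgn1 flank both shares were above the rest for 6 of 11. The intervals that left out the rest lay above it for 3 DKO-only shares (NANOG, SOX2 and OCT4) and below it for 1 (H3K27ac) in the Hmgn2 flank, and above it for 3 WT-only shares (CEBPB, CTCF and IKAROS) and 1 DKO-only share (NANOG) in the Hmgn1 flank, apart from the single Brd3 site. Leaving out a library makes a class easier to enter, and it moved some of the gaps between flank and rest by over 1.5 times without turning any. Without DKO replicate 1 or 2 the NANOG DKO-only gap went from 3.09 to 4.77 or 5.03 percentage points in the Hmgn2 flank and from 3.12 to 5.28 or 7.23 in the Hmgn1 flank, where it was 1.56 without WT replicate 2. Without DKO replicate 2 the OCT4 gap in the Hmgn2 flank went from 9.21 to 15.4. The SOX2 gap in the Hmgn1 flank, 5.23, was 12.3 or 11.5 without DKO replicate 1 or 2 and 2.40 without WT replicate 2. The H3K27ac DKO-only gap in the Hmgn2 flank went from −1.43 to between −3.71 and −2.48 without any 1 library, and the IKAROS gap in the Hmgn1 flank from 11.98 to 5.401 or 7.04 without WT replicate 1 or 2 and 6.50 without DKO replicate 1.

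The second measure was the share of a chromosome's peaks that each library had in the flank, tested with limma over all 32 pairs of antibody and flank as DKO minus WT of log2(flank peaks + 0.5) − log2(rest + 0.5). OCT4 had 20.2% and 20% of its chromosome 4 peaks in the Hmgn2 flank in WT and 25.8% and 24.3% in DKO ESCs (log2 difference 0.41 ± 0.05 SE, adjusted p = 0.047). Brd3 had 25.9% and 25.3% in WT and 30.9% and 30.8% in DKO MEFs there (0.37 ± 0.03, 0.024), but 15.9% and 15.4% against 13.4% and 13.1% in the Hmgn1 flank (−0.27 ± 0.04, 0.047). The libraries of the 2 genotypes did not overlap in any of these. They did not overlap either in pairs that this fit did not call, such as NANOG and SOX2 in both flanks. CEBPB fell in the Hmgn1 flank, from 15.95% and 15.2% to 11.7% and 11.2% (−0.50 ± 0.05, 0.047), and ETS1 in the Hmgn2 flank, from 31.1% and 30.4% to 27.3% and 27.1% (−0.23 ± 0.03, 0.047). A call for OCT2 in the Hmgn1 flank came from the added 0.5 alone, since no library had a peak there. Counting it, 3 of the 32 were higher (9.38%) and 3 lower (9.38%) in DKO. None of the 5 calls with peaks was kept without any 1 of the replicates (adjusted p from 0.076 to 0.247), nor with the replicate number as a block (0.088 to 0.089). With the same number of top peaks in every library, Brd3 in the Hmgn2 flank stood at 0.13, and against the rest of chromosomes 1 to 19 at 0.14.

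CTCF showed how level the measure could be, with 30.6% and 30.2% in WT and 30.5% and 30.5% in DKO ESCs in the Hmgn2 flank and 19.2% and 19.7% against 19.2% and 19.4% in the Hmgn1 flank (log2 differences 0.01 ± 0.02 and −0.01 ± 0.03, adjusted p = 0.856 and 0.753). Whether the flanks differed from other regions was read from 1 limma fit per antibody over all regions of about 20 Mb, an alternative chosen after values were seen. There 8 of 22 flank tests passed, 4 higher and 4 lower, beside 8.1% of 1334 region tests higher and 10.7% lower. OCT4 in the Hmgn2 flank had the 3rd largest difference in size of 124 regions and CEBPB in the Hmgn1 flank the 5th, but 29.0% and 40.3% of all regions passed for these antibodies. NANOG passed in both flanks (0.15 and 0.10), as did 41.9% of its regions. H3K27ac in the Hmgn2 flank (−0.11, adjusted p = 0.008) and IKAROS in the Hmgn1 flank (−0.24, 0.048) were the lower ones besides CEBPB and Brd3. For these antibodies 20.2% (H3K27ac), 28.6% (IKAROS) and 33.9% (Brd3) of all regions passed, and the flanks were 20th, 36th, and 24th and 35th in size. The ETS1 call in the Hmgn2 flank was lost in this fit (−0.23 ± 0.22 SE, adjusted p = 0.508, 61st in size of 102 regions). SOX2 in the Hmgn1 flank had 12.1% and 10.1% in WT and 13.0% and 13.6% in DKO, the 5th largest difference (0.29, adjusted p = 0.104).

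**Figure D3:**
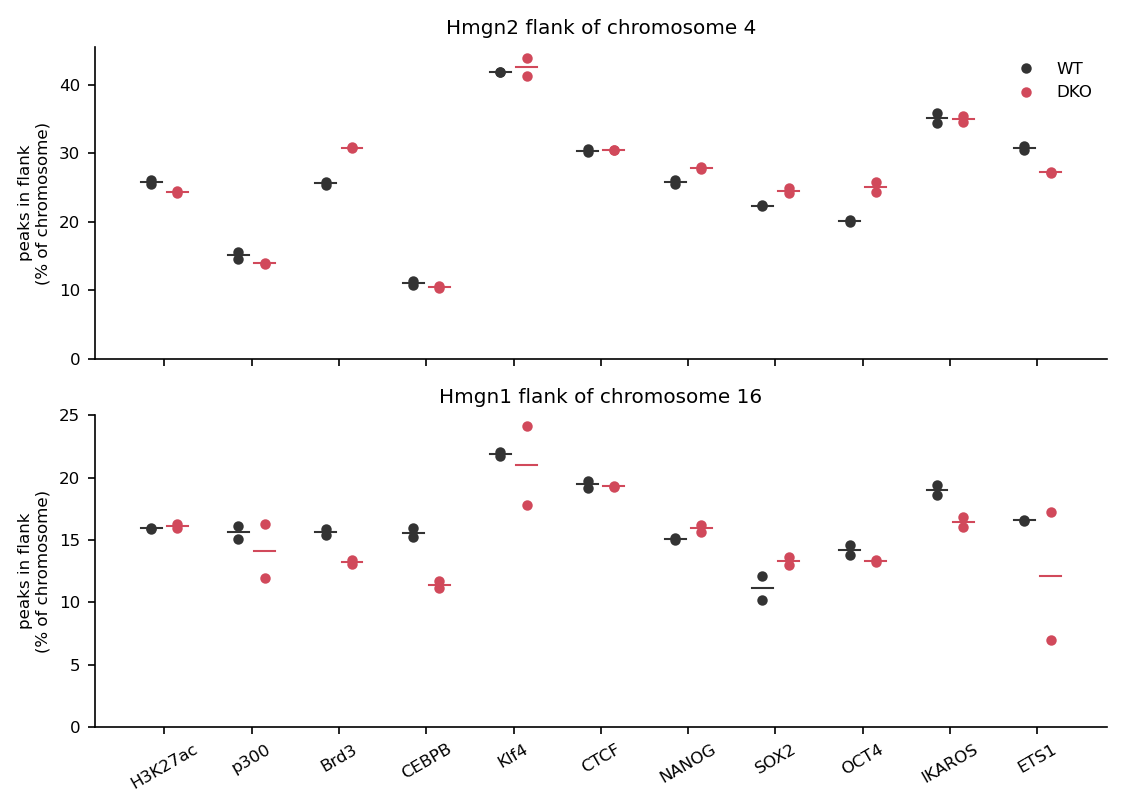
Percentage of a chromosome's peaks that lay in the flank, with 1 point per library (WT and DKO, 2 of each per antibody) and a line at the mean. OCT4 in the Hmgn2 flank moves from 20.2% and 20% to 25.8% and 24.3%, and CTCF stays between 30.2% and 30.6%.

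**Figure D4:**
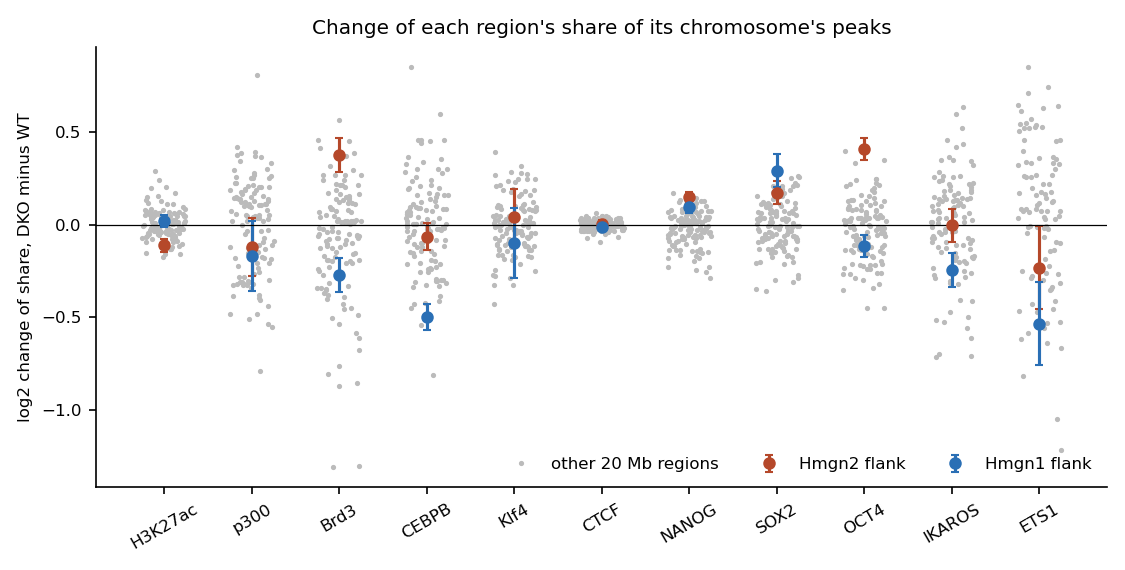
Log2 difference, DKO minus WT, of the peak share of regions of about 20 Mb for each antibody, with the 2 flanks (coloured points ± SE) among all other regions of chromosomes 1 to 19 (grey). OCT4 in the Hmgn2 flank (0.41) and CEBPB in the Hmgn1 flank (−0.50) lie toward the edge of their antibody's regions, and CTCF near 0.

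Windows of 2 Mb located the changes more closely, with peak numbers taken relative to the total of each library and tested with limma over all windows of an antibody. Of 169 flank tests, 22 passed, 15 higher and 7 lower in DKO, and 49 had an unadjusted p under 0.05. Over all 10900 windows of the genome, 6.26% were called higher and 5.35% lower. OCT4 and NANOG each had 6 of 16 flank windows called, beside 22.6% and 11.1% of all their windows, and CEBPB had 6 of 16 beside 39.5%. The OCT4 call in the Hmgn1 flank, 90.3 to 92.3 Mb of chromosome 16, was lower in DKO relative to the library total (−0.31, adjusted p = 0.039). It held 21 and 24 peaks in WT and 45 and 44 in DKO ESCs. The called CEBPB windows went both ways, 4 lower and 2 higher in DKO relative to the library total. The higher ones, 125.5 to 127.5 and 141.5 to 143.5 Mb of chromosome 4, held 6 and 7 against 4 and 3 peaks (0.70, adjusted p = 0.030) and 5 and 5 against 3 and 3 (0.86, 0.012), and 123.5 to 125.5 Mb held 7 and 7 against 0 and 0. CTCF, Klf4 and p300 had 0 called windows in the flanks and in the genome by limma, with 0, 1 and 1 flank windows and 147, 45 and 122 windows in all at an unadjusted p under 0.05. The window from 133.5 to 135.5 Mb of chromosome 4, which begins with Hmgn2, held 100 and 106 NANOG peaks in WT and 148 and 147 in DKO ESCs (log2 difference 0.25, adjusted p = 0.006), and 16 and 17 against 49 and 57 OCT4 peaks (0.36, 0.019). Next to it, 131.5 to 133.5 Mb held 13 and 13 against 48 and 52 OCT4 peaks (0.62). On chromosome 16, the window from 94.3 to 96.3 Mb beside Hmgn1 held 19 and 23 CEBPB peaks in WT and 3 and 4 in DKO MEFs (−0.92, adjusted p = 0.000155), and 16 and 19 against 4 and 4 IKAROS peaks in rBs (−0.98, adjusted p = 0.014). In the window from 92.3 to 94.3 Mb, which holds Runx1, Brd3 fell from 40 and 45 to 6 and 9 (−0.79, 0.019) while NANOG rose from 53 and 51 to 74 and 77 (0.27, 0.024).

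Shares of sites in 2 Mb steps along the flanks were described without a test. NANOG DKO-only sites made up 6.77% to 18.8% of sites per step in the Hmgn2 flank, with the highest value, 33 of 176, in the step beginning at the gene, but the next highest, 16.8% (25 of 149), in the step farthest below it. In the Hmgn1 flank the highest value, 19 of 93 (20.4%), lay 2 to 4 Mb below the gene and the step next to the gene had 8 of 90 (8.89%). OCT4 DKO-only sites ranged from 23.3% to 46.3% in the Hmgn2 flank, highest 6 to 8 Mb above the gene, and of 2 steps with at least 30 sites in the Hmgn1 flank the one next to the gene was the higher (12 of 33, 36.4%). CTCF DKO-only sites had their highest Hmgn2 value, 8 of 106 (7.55%), 8 to 10 Mb below the gene. WT-only sites were highest in a step next to the gene for Brd3 in the Hmgn2 flank (25 of 65, 38.5%) and for H3K27ac in the Hmgn1 flank (14 of 165, 8.48%). In the other flank both were highest 2 to 4 Mb below the gene, Brd3 with 18 of 48 (37.5%) around Hmgn1 and H3K27ac with 10 of 97 (10.3%) around Hmgn2, and for CTCF and NANOG the highest WT-only step lay away from the gene in both flanks.

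**Figure D5:**
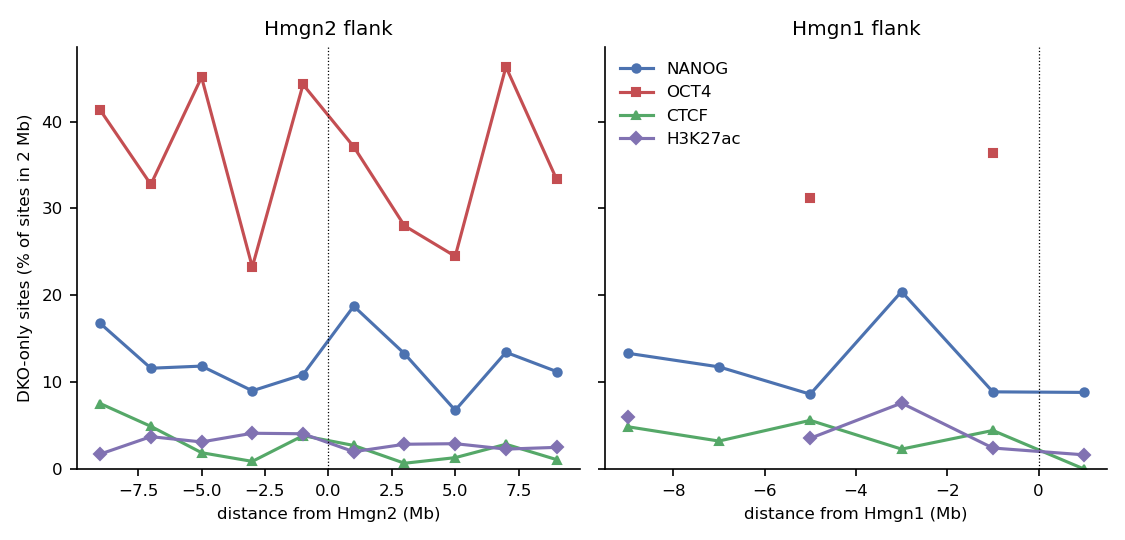
DKO-only sites as a percentage of the sites in 2 Mb steps along each flank, against distance from the deleted gene in Mb (dotted line), for antibodies and steps with at least 30 sites. Values rise and fall along the flanks, from 23.3% to 46.3% for OCT4 around Hmgn2, and the highest CTCF step there, 7.55%, lies 8 to 10 Mb below the gene.

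The third measure kept libraries apart: the odds that a peak met no peak of either library of the other genotype, against the same odds in the rest of the chromosome, tested with limma over all regions of an antibody. Of 44 flank tests, 11 passed, 7 above and 4 below, and 17 had an unadjusted p under 0.05. Over all 2668 tests of the genome, 8.21% were called above and 4.76% below. Where at least 5 unmatched peaks were expected, a limit set after values were seen, 6 of 31 passed, 4 above and 2 below. Of all 1857 tests of the genome within this limit, 4.52% were called above and 4.58% below. The 5 calls below that limit rest on few or no unmatched flank peaks: IKAROS and ETS1 peaks of DKO rBs in the Hmgn1 flank and CEBPB peaks of DKO MEFs in the Hmgn2 flank had 0, so that the flank value came from the added 0.5, and OCT4 peaks of WT ESCs had 0 and 1 in the Hmgn2 and 2 and 2 in the Hmgn1 flank. NANOG peaks of DKO ESCs were unmatched in 26.5% and 26.2% in the Hmgn2 flank against 21.4% and 21.9% in the rest of chromosome 4 (log odds 0.26 ± 0.07 SE, adjusted p = 0.035), and in 28.65% and 26.96% in the Hmgn1 flank against 20.3% and 20.8% (0.40 ± 0.06, 0.010). NANOG peaks of WT ESCs were unmatched less often in the Hmgn2 flank, 6.23% and 6.48% against 8.74% and 7.79% (−0.28 ± 0.07, 0.036). Both Hmgn2 calls were lost with the replicate number as a block (adjusted p = 0.088 and 0.085), and without either DKO replicate, where the DKO value was 0.24 or 0.28 (adjusted p = 0.303 and 0.066) and the WT value −0.32 or −0.10 (0.1197 and 0.401). The Hmgn1 call was lost without DKO replicate 1 (0.34, 0.162), and stood at 0.26 without WT replicate 2.

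H3K27ac peaks of DKO MEFs were unmatched in 13.0% and 13.4% in the Hmgn2 flank against 17.5% and 18.1% (−0.35 ± 0.05, adjusted p = 0.001), and in 20.1% and 21.5% in the Hmgn1 flank against 17.3% and 18.2% (0.20 ± 0.05, 0.014). Thus the same mark went below the rest in one flank and above it in the other. Without DKO replicate 2 neither was called (−0.35 and 0.19, adjusted p = 0.053 and 0.077), and the second stood at 0.06 with peaks within 1000 bp merged and at 0.07 in flanks narrowed to 5 Mb. CTCF peaks of WT ESCs were unmatched in 20 of 390 and 19 of 403 in the Hmgn1 flank against 52 of 1641 and 46 of 1643 in the rest of chromosome 16 (0.54 ± 0.12, adjusted p = 0.040). Without either DKO replicate it was lost (0.34 and 0.31, adjusted p = 0.083 and 0.075), and it stood at 0.41 (0.052) against the rest of chromosomes 1 to 19. CTCF peaks of DKO ESCs in the same flank were unmatched in 5.90% and 6.91% against 5.80% and 5.39%, and did not pass.

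Sites of 1 genotype were mostly weak. The median strength in the Hmgn2 flank was 6.79 for WT-only and 8.06 for DKO-only CTCF sites against 75.0 for shared sites, 9.20 for NANOG DKO-only against 19.96, and 15.3 for OCT4 DKO-only against 48.9. Sites at least as strong as the median shared site of the genome, a limit set after values were seen, were counted to set weak sites aside. CTCF had none in either flank and class, beside 0.00565% (WT-only) and 0.00282% (DKO-only) of sites over all chromosomes, and the median of the 124 regions was 0 as well (highest 0.426% for WT-only and 0.235% for DKO-only sites). NANOG had 7 such DKO-only sites of 1413 in the Hmgn2 flank (0.495%, 16th of 124 regions) and 5 of 448 in the Hmgn1 flank (1.12%, 3rd), beside 0.218% over all chromosomes, behind regions of chromosome 7 (40 to 60 Mb, 1.47%) and chromosome 14 (40 to 60 Mb, 1.40%). SOX2 had 10 of 306 (3.27%, 3rd) and 3 of 103 (2.91%, 6th) beside 1.28%, and OCT4 had 11 of 552 (1.99%, 35th) and 5 of 160 (3.13%, 4th) beside 1.63%. H3K27ac WT-only sites of this strength numbered 6 of 1525 (0.393%, 10th) and 2 of 704 beside 0.15%, and the Hmgn2 promoter held 2 of those 6. For p300 they numbered 6 of 77 in the Hmgn2 flank (7.79%, 5th of 119 regions) and 2 of 60 in the Hmgn1 flank (3.33%, 31st) beside 2.39%, and for IKAROS 6 of 238 (2.52%, 24th of 113) and 3 of 73 (4.11%, 5th) beside 1.36%. Other antibodies stood nearer the middle or low. ETS1 had 7 of 112 (6.25%, 40th of 89) and 0 of 38 (86th) beside 5.91%, Brd3 had 21 of 590 (3.56%, 60th of 123) and 10 of 228 (4.39%, 34th) beside 3.63%, and CEBPB had 5 of 104 (4.81%, 47th) and 6 of 108 (5.56%, 31st) beside 4.19%. H3K27ac DKO-only sites of this strength numbered 0 of 1525 (69th) and 2 of 704 (0.284%, 21st) beside 0.133%.

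The strongest DKO-only OCT4, SOX2, NANOG and CTCF site of the flanks each lay away from promoters, whereas the 3rd strongest NANOG site was at the Bsdc1 promoter (39.1 and 28.7). In the Hmgn2 flank 21.2% of DKO-only and 11.8% of shared NANOG sites were at promoters, 23.7% and 7.91% of CTCF sites, 10.5% and 6.37% of OCT4 sites and 8.22% and 6.47% of SOX2 sites. In the Hmgn1 flank the values were 11.3% and 6.48% for NANOG, 6.25% and 5.56% for CTCF, and 4% and 0% for SOX2. OCT4 went the other way there (6.38% and 9.68%), as did H3K27ac in the Hmgn2 (8.70% and 39.5%) and Hmgn1 (0% and 24.1%) flanks. These promoter shares were not computed over all chromosomes. Of OCT4, the site chr16:90658377-90658698, 68.9 kb from the start of 2610039C10Rik, had 114 and 139 in DKO and no peak in WT ESCs, and chr16:97460971-97461258, 68.6 kb from Dscam, had 73.5 and 76.6. For SOX2, chr4:128492473-128492759 (9.18 kb from Zfp362) had 25.5 and 61.0 and chr4:139183284-139183623 (an intron of Aldh4a1, an enzyme of proline breakdown) 32.6 and 45.9. The strongest NANOG site, chr16:95395325-95395668, had 48.7 and 50.1 and lay 83.5 kb from Kcnj15, a potassium channel gene. Among shared sites 74.2% of NANOG and 86.8% of OCT4 sites were weaker than these leading sites.

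For CTCF, the DKO-only site chr16:89188896-89189158, 13.9 kb from 1110057P08Rik, had 57.1 and 55.8, above 46.7% of shared CTCF sites, and its window shown above has the CTCF letters 9 bp from the summit. The next, chr16:93817219-93817445 and chr16:93825672-93826045, lay 14.9 and 6.32 kb from Morc3, a nuclear ATPase gene, with 29.6 and 33.4 and with 22.4 and 18.95. The strongest WT-only CTCF site, chr16:95174987-95175203 in an intron of the potassium channel gene Kcnj6, had 18.3 and 21.7. CEBPB WT-only sites reached further up their list, with 83.1 and 60.6 at chr16:92715762-92715987 in an intron of Runx1, a haematopoietic transcription factor gene, above 88.0% of shared sites. In the other MEF lists, p300 had 17.6 and 15.4 in an intron of Stk40 (chr4:125808984-125809457), Brd3 had 31.6 and 16.5 in an intron of Iffo2 (chr4:139155150-139155533), and H3K27me3 had 7.04 and 4.25 in an exon of Grrp1, all WT-only. The strongest DKO-only H3K27ac site, chr16:92878897-92879296, 52.6 kb from Runx1, had 16.2 and 12.6. In rBs, WT-only IKAROS sites after Hmgn2 were at the D4Ertd22e promoter (32.8 and 53.5) and in an intron of Cnr2, a cannabinoid receptor gene (30.3 and 45.8). The strongest WT-only sites of 3 other rB antibodies were ETS1 at the Necap2 promoter (23.95 and 35.2), IRF8 at chr16:93816674-93816918 near Morc3 (26.3 and 18.7) and PAX5 at the promoter of Laptm5, a lysosomal protein of lymphocytes (12 and 16.8).

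Sites of several antibodies overlapped in stretches of the same class. The 53 WT-only stretches (48 with 2 antibodies and 5 with 3) spanned more than 1 cell type in 25 cases, and 20 lay at promoters. One at the Trnau1ap promoter (chr4:131885227-131885922) joined Brd3, ETS1 and NANOG from all 3 cell types. Of the 42 DKO-only stretches, 40 came from ESCs alone and 4 lay at promoters, and the other 2 joined H3K27ac of MEFs with SOX2 in an intron of Sdc3 (chr4:130357691-130358444) and with NANOG 45.0 kb from Ahdc1 (chr4:132640368-132640861). DKO-only NANOG, OCT4 and SOX2 sites met at chr16:95395228-95395668, the leading NANOG site, and at chr4:127460169-127460483, Klf4, OCT4 and SOX2 at chr16:97456629-97457086, and CTCF, OCT4 and SOX2 at chr4:132079959-132080494. Outside ESCs the flanks held DKO-only sites of H3K27ac and Brd3 alone, with 1 Brd3 site in each flank, so the classes themselves set most of this difference in cell type and nothing is read from it.

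At promoters of 55 listed genes of the flanks (within 1000 bp of a start site; 51 had a peak of some antibody), most sites of the broadly bound factors were shared. H3K27ac was shared at 37 of the 40 genes where it was called and WT-only at 1, Runx3 (2.47 and 2.23), and CTCF was shared at 12 of 13. Over the promoters of all 22232 coding genes, 1.45% of those with H3K27ac, 25.6% of those with Brd3 and 1.14% of those with CTCF were WT-only. The DKO-only shares were 0.656%, 0.0197% and 4.25%, and the shared share over all genes was not computed. Brd3 was shared at 26 of 36 listed genes and WT-only at 4, among them Ttc3, a ubiquitin ligase gene (11.9 and 18.9), and Sod1, the cytosolic superoxide dismutase gene (7.34 and 8.94). H3K27me3, the mark of silent chromatin, was WT-only at Wnt4 (3.23 and 4.13).

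Among transcription factor and chromatin genes, Arid1a, a subunit of the BAF remodelling complex, had DKO-only OCT4 (16.4 and 19.7) and WT-only IKAROS (13.6 and 8.0) and ETS1 (11.6 and 3.21), while NANOG (8.1 and 7.4 against 18.6 and 12.5) and H3K27ac were called in both genotypes. CEBPB was WT-only at Hdac1, a histone deacetylase gene (16.2 and 24.1), and at Erg (6.33 and 14.5). NANOG was DKO-only at Kdm1a, a histone demethylase gene (7.88 and 10.6), Lin28a, an RNA-binding regulator of let-7 (5.73 and 5.73), Spen and Chaf1b, and OCT4 at E2f2 and Pax7. Klf4 was DKO-only at Sfpq and Chaf1b, 2 of the 13 listed genes with a Klf4 promoter peak, beside 7.45% of all coding genes with such a peak. Runx1 had H3K27ac (102.4 and 102.5 against 134.1 and 172.9), Brd3 (32.8 and 41.3 against 21.4 and 15.4) and IKAROS (39.3 and 58.3 against 14.2 and 20.8) called in both genotypes, and its ETS1 site was WT-only (7.75 and 12.5).

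Of the 4 interferon and interleukin-10 receptor genes on chromosome 16 (Ifnar1, Ifnar2, Ifngr2 and Il10rb), all had H3K27ac and Brd3 in both genotypes and 3 had IKAROS in both, with 159.4 and 184.7 in WT and 81.6 and 76.4 in DKO rBs at Il10rb. IKAROS was WT-only at Ifnar2 (5.28 and 6.84), ETS1 at Ifnar1 (9.18 and 9.46) and CEBPB at Ifngr2 (31.6 and 22.5), and OCT4 was DKO-only at Ifnar1 (3.08 and 5.05). NANOG was also DKO-only at Ephb2, an ephrin receptor gene (8.37 and 16.3). Of the transcription factor and chromatin genes, Morc3 (28.6 and 26.9) and Son, at the promoter it shares with Gart (12.7 and 2.08), had DKO-only NANOG too. OCT4 was DKO-only at Rcan1, a calcineurin inhibitor gene (21.7 and 24.9), and Stmn1. In all, NANOG was DKO-only at 8 of 30 genes, OCT4 at 6 of 10, and CEBPB, ETS1 and IKAROS were WT-only at 4 of 8, 4 of 9 and 4 of 19. Among all coding genes with a promoter peak of the same antibody, the DKO-only share was 20.2% for NANOG and 31.2% for OCT4, and the WT-only share 42.8% for CEBPB, 34.1% for ETS1 and 22.7% for IKAROS. Son and Gart were each counted for the promoter they share. The opposite classes had 0 listed genes, beside 1.05% of all genes for NANOG WT-only, 0.0325% for OCT4 WT-only, and 0.147%, 0.0889% and 0% for DKO-only CEBPB, ETS1 and IKAROS.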

How the data were processed

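ChIP-seq peak lists of 64 libraries were used. Per the labels and the methods, the authors trimmed reads with cutadapt 1.16, mapped them to mm9 with BWA, removed blacklisted reads and called narrow peaks per library with MACS2 2.1.1.20160309. The deposited columns were a score (10 times −log10 q), a fold enrichment ratio, and −log10 p and −log10 q. Peaks of 1 antibody overlapping by 1 bp or more were merged into sites. The smallest exact permutation p of 2 against 2 libraries is 0.333, so the spread was shared over features with limma 3.58.1 (R 4.3.3; 0.5 added to counts; Benjamini-Hochberg adjusted p of 0.05). Whether replicates are separate animals or cultures is not given, so p-values measure the spread between these libraries. Regions needed 10 peaks and windows 2 peaks per library on average. Same-numbered libraries did not deviate together (r = −0.08 over 22 pairs of antibody and flank). Named are Hmgn1, Hmgn2, the strongest WT-only and DKO-only sites per antibody, overlaps of 2 or more antibodies, and promoters of 55 listed genes. Members, lists and tests were chosen with earlier results of these data known. Fits were tested on simulated data. Alternatives were other thresholds, merging, pseudocounts, windows, narrower flanks and left-out libraries. Input libraries were not used here.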

Additional observations from a re-analysis of the deposited data

How the results depend on the processing

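Of the counts of calls and intervals, 44 recomputed values stayed within 1.5 times the reported count and 12 did not, and among single named values 199 stayed on their side, 65 kept the direction but lost the call and 8 moved by more than their spread. None of them reversed. For the share of a chromosome's peaks in the flank (6 calls), leaving out 1 replicate gave 1 to 2 calls, the same number of top peaks in every library gave 1, the replicate block 1 and a robust prior 2. For the 2 Mb windows (22 calls), the same number of top peaks gave 4 calls of 149 tests, and the replicate block 21 of 169. For unmatched peaks (11 calls), merging peaks within 1000 bp gave 7, the replicate block 7, and at least 5 expected unmatched peaks 6 of 31, the last by its construction since fewer regions were tested. For site shares (9 intervals), a fold enrichment of at least 4 gave 5. The cause was not tested for the others. Replicate numbers only name samples here, and a call lost under the block is not read as a weaker effect.

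The peak lists hold no reads, so depth cannot be weighed, and a missing peak says only that no −log10 q reached the caller's limit (the smallest listed value was 2). With 2 libraries per genotype, single calls rest on a spread shared over features. The deposited lists hold no variants, so whether DNA in the flanks differs between WT and DKO cells was not tested, and the shares of the flanks cannot be told apart from other differences between regions, such as gene density.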

Other observations

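A cluster of DKO-only sites of 4 ESC factors lay in the Hmgn1 flank from upstream of Cbr3 to the Morc3 promoter, chosen after values were seen. In order of position it held SOX2 at chr16:93669876-93670100 (19.6 and 34.8 in the 2 DKO libraries), where a DKO-only Klf4 site overlapped, NANOG at chr16:93676776-93677087 (23.0 and 23.0) and Klf4 at chr16:93676878-93677086 (8.90 and 16.8). CTCF followed at chr16:93817219-93817445 (29.6 and 33.4) and chr16:93825672-93826045 (22.4 and 18.95), and NANOG at the Morc3 promoter (28.6 and 26.9). An IRF8 site called in WT rBs alone, chr16:93816674-93816918 (26.3 and 18.7), lay beside the first CTCF site, and a WT-only IKAROS site joined it in a stretch that ran to 93817500. No test was made of this cluster, and the shared and other sites of the same factors in this span were not counted.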
